A study of Mus musculus with 7 samples.

Results

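The 10 genes described here are the Toll-like receptors *Tlr1*, *Tlr2*, *Tlr4*, *Tlr6*, *Tlr7*, *Tlr8*, *Tlr9* and *Tlr13*, the coreceptor *Cd14* and the adaptor *Myd88*. They were taken by symbol from a table of estimated counts for 47729 Ensembl mouse genes. Each symbol matched 1 identifier, and all 10 genes passed the filter on low counts, as did 19188 genes in all. Aortic RNA was sequenced in 4 wild-type libraries (WT) and in 3 libraries from Mmp19-/- mice (KO). The gene *Mmp19* codes for a matrix metalloproteinase that cells secrete, and the series title places it in vascular smooth muscle cells in aortic aneurysm and dissection. The labels give the genotype and the tissue. They state no strain, age, sex or treatment, they do not say whether the allele is deleted in all cells, and leave unsaid whether the libraries are from separate mice. P-values therefore measure the spread between these 7 libraries, which may in part be technical.

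Toll-like receptors are membrane proteins that bind microbial molecules and some products of damaged tissue. The receptors encoded by *Tlr1*, *Tlr2*, *Tlr4* and *Tlr6* sit at the cell surface, where *Tlr2* pairs with *Tlr1* or *Tlr6* to bind bacterial lipopeptides and *Tlr4* binds lipopolysaccharide handed over by *Cd14*. Those encoded by *Tlr7*, *Tlr8*, *Tlr9* and *Tlr13* signal from endosomes, where they meet nucleic acids: single-stranded RNA, unmethylated CpG DNA and, for *Tlr13*, bacterial ribosomal RNA. All of these receptors recruit the adaptor *Myd88*, which leads through IRAK kinases to NF-κB and to the transcription of inflammatory genes. In the vessel wall, macrophages and other myeloid cells carry many of these receptors, while *Tlr4* and *Myd88* are also made by smooth muscle, endothelial cells and fibroblasts.

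*Tlr1* and *Tlr6* are neighbours on chromosome 5 and are close copies, which matters for reading their counts. *Tlr1* lies at chr5:64924679-64933563 and *Tlr6* at chr5:64952031-64960097 (GRCm38, both on the minus strand), with 18467 bases between them. Of the 50-base windows of the *Tlr1* transcripts, 454 also occur in a *Tlr6* transcript, and windows shared with any other gene make up 15.4% for *Tlr1* and 12.3% for *Tlr6*. The longest identical run is 229 bases of coding sequence, shown here because a read inside it cannot be given to either gene by its sequence. It lies at chr5:64925537-64925765 in *Tlr1* and at chr5:64953828-64954056 in *Tlr6*, and is written 5′ to 3′ on the transcribed strand.
Tlr1 and Tlr6, shared run: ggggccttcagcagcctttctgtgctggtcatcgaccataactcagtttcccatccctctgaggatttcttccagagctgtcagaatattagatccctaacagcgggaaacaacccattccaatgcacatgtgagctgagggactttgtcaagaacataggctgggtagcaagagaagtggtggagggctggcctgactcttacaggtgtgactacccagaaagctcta
How the authors' counting shared out such reads is not given in the sources used here, so the values of *Tlr1* and *Tlr6* are uncertain in part. The other 6 receptors and *Cd14* shared 0.216% of their windows or less with any other gene. *Myd88* (chr9:119335934-119341411) shares 290 exon bases with *Acaa1a* on the other strand, and the strand setting of the counting is not given either. *Acaa1a* averaged 103.7 ± 11.2 CPM in WT and 93.6 ± 12.0 CPM in KO (SD, n = 4 and 3), with overlapping groups. CPM are counts scaled to the size of each library.

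Promoter sequence from the RefSeq table (GRCm38.p6) was used for 7 of the 10 genes, *Tlr1*, *Tlr2*, *Tlr6*, *Tlr8*, *Tlr9*, *Tlr13* and *Myd88*. The table held no entry for *Tlr4* and *Tlr7*, and *Cd14* was left out by choice. Those of the 3 genes with the largest fold change and of *Tlr6*, the neighbour that moved little outside 1 library, are shown from 250 bases before the start of transcription to 50 bases after it. Where the table held 2 starts (*Tlr1* and *Tlr6*), the one nearest the annotated end of the gene was used. Capitals mark matches on either strand to GAGGAA, the core of the box bound by the myeloid factor PU.1.
Tlr13 promoter, chrX:106143025-106143324, plus strand: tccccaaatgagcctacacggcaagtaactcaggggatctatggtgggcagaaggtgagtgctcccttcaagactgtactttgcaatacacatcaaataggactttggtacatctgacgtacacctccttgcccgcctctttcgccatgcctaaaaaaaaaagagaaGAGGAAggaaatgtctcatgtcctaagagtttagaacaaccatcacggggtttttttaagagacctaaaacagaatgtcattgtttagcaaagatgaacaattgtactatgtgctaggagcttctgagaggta
Tlr1 promoter, chr5:64933509-64933808, minus strand: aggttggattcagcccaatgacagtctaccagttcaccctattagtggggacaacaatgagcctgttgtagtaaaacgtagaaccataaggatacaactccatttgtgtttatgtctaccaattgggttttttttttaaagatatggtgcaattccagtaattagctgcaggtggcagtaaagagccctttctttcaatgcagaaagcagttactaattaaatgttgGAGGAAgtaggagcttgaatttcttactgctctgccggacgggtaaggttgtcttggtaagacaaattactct
Tlr8 promoter, chrX:167264280-167264579, minus strand: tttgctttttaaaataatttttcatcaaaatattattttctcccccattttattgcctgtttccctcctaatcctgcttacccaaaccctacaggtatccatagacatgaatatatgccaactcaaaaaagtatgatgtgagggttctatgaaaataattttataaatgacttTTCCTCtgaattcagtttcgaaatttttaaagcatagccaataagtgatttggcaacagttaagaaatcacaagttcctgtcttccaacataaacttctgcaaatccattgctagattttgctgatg
Tlr6 promoter, chr5:64959999-64960298, minus strand: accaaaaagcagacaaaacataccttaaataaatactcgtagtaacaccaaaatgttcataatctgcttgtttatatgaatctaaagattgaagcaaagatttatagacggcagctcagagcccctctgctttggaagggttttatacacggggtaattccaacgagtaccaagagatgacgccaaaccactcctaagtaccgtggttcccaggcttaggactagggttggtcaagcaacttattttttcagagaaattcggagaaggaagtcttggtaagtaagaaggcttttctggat
This box begins 83 bases before the start in *Tlr13*, 23 in *Tlr1* and 77 in *Tlr8*, and the *Tlr6* window holds none. Among the 7 promoters, 4 held the box (the other is *Tlr9*), as did 28.3% of all 32851 promoters of this length, so that the letters are common. The windows of *Tlr2* and *Myd88*, whose KO libraries also lay above all WT libraries, held none. The interferon-stimulated response element (GAAA, any 2 bases, GAAA) occurred in 1 of the 7, *Myd88*, 40 bases before the RefSeq start, and in 3.44% of all promoters. That window, chr9:119339969-119340268 on the minus strand, lies inside the gene as annotated (chr9:119335934-119341411). The AP-1 site TGANTCA occurred in 1, *Tlr9*, and in 7.81% of all, and the NF-κB site (GGGA, any 2 bases, TTCC) in 0 of the 7 and in 1.47% of all. None of these matches overlapped another, and all motifs were searched on both strands. A match shows letters in a window and not a bound site.

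Before the receptors are described, the libraries need a word. Estimated counts summed to between 68151472 and 76926790 per library. *Mmp19* itself was still counted in the libraries labelled KO, with a mean and SD of 17.8 ± 6.96 CPM in 3 KO libraries and 26.2 ± 5.96 CPM in 4 WT libraries, and the groups overlapped through KO replicate 1. That library read 25.5 CPM, while KO replicates 2 and 3, at 12.0 and 15.9 CPM, lay below the lowest WT library at 20.7 CPM, and the log2 fold change was -0.56 with KO replicate 1 and -0.92 without it. A count over the whole gene says nothing about single exons, so this does not check the deletion. KO replicate 1 stood apart for myeloid transcripts: the 13 macrophage markers summed to 3961 CPM in it, to 784 and 1317 CPM in KO replicates 2 and 3, and to between 403 and 644 CPM in WT. The 8 neutrophil markers summed to 254.5, 8.15 and 39.0 CPM in KO replicates 1, 2 and 3 and to between 2.87 and 9.01 CPM in WT. Of these 8, *Csf3r* (173.0 CPM), *Cxcr2* (50.4 CPM) and *Retnlg* (28.7 CPM) made up nearly all of the sum in KO replicate 1. *Mpo*, *Elane*, *Camp*, *Ltf* and *Ly6g*, the other 5, had overlapping groups, and the median log2 fold change of the 7 markers tested was 0.10. The 5 smooth muscle markers summed to 3270, 13030 and 6793 CPM in the same order, against 17370 CPM or more in WT. They were thus counted in every library. The libraries also differed in striated muscle transcripts. Its 4 markers summed to 479.7, 548.0 and 36.2 CPM in KO replicates 1, 2 and 3 and to between 9.54 and 70.7 CPM in WT. Most of this was the heart myosin gene *Myh6*, at 410.6, 500.2 and 0.738 CPM in KO and 2.35 to 46.95 CPM in WT. Where these transcripts came from was not tested. In RNA of whole tissue, more cells of a type and more RNA per cell cannot be told apart.

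All 10 genes had a positive log2 fold change in KO against WT, as did 46.9% of all tested genes, and their median was 2.20 where that of all tested genes was -0.03. The means in KO lay between 1.32 and 19.0 times those in WT. For 7 of the 10, the lowest KO library exceeded the highest WT library, as in 8.17% of all tested genes. None of them passed edgeR's quasi-likelihood test with Benjamini-Hochberg adjustment over all genes (adjusted p from 0.165 to 0.306), a test that called 0.0156% of all genes higher. At an unadjusted p under 0.05 there were 9 of the 10, all higher, against 9.92% of all genes higher and 7.27% lower. DESeq2 called 8 of the 10 higher, against 5.32% of all genes higher and 3.05% lower, and limma-voom called 0. In 9 of the 10 genes KO replicate 1 was the highest KO library, then replicate 3, then replicate 2, an order found in 21.8% of all tested genes. The macrophage markers had the same order. Their part in the differences was not tested, and the levels relative to these markers are given after the single genes.

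**Figure D1:**
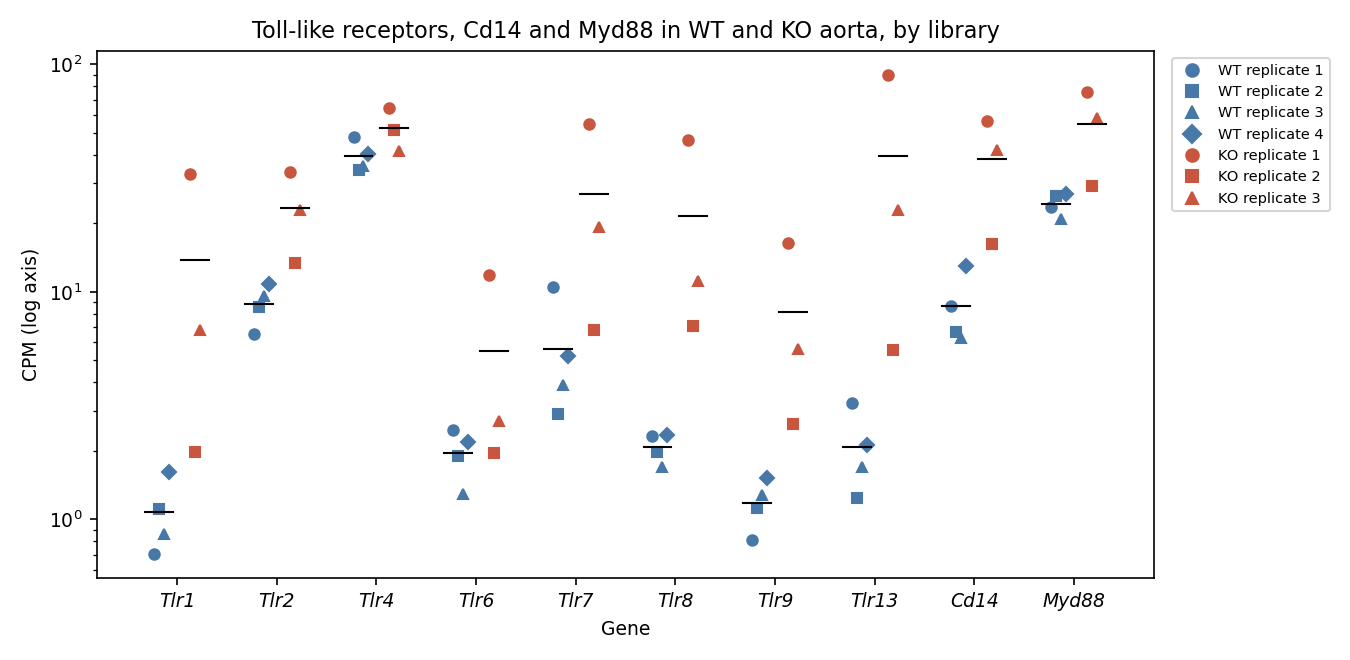
CPM on a log axis of the 10 genes in each library, with blue symbols for the 4 WT and red symbols for the 3 KO libraries, the symbol's shape giving the replicate number and the black line the group mean. KO replicate 1 (red circle) is the highest library for every gene, and KO replicate 2 (red square) lies closest to WT for all but *Tlr4*, where KO replicate 3 does.

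Among the endosomal receptors, *Tlr13* (chrX:106143204-106160493) differed most. It read 3.26, 1.24, 1.69 and 2.13 CPM in WT replicates 1 to 4 and 90.05, 5.55 and 22.8 CPM in KO replicates 1 to 3. All KO libraries lay above all WT libraries, and KO replicate 1 was 16.2 times KO replicate 2. The log2 fold change was 4.25 (SE 0.87, edgeR adjusted p = 0.165), and 2.77 without KO replicate 1. *Tlr8* (chrX:167242696-167264329) read 2.32, 1.99, 1.71 and 2.35 CPM in WT and 46.3, 7.05 and 11.2 CPM in KO. Its WT libraries were close together, the highest being 1.38 times the lowest, and KO replicate 2 was already 3.38 times the WT mean, more than for any other of the 10 genes. Its log2 fold change was 3.36 (SE 0.62, edgeR adjusted p = 0.165), and 2.12 without KO replicate 1.

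*Tlr7* (chrX:167304929-167330558) lies 40599 bases from *Tlr8* and like it belongs to the RNA sensors, but its groups overlapped. It read 10.5, 2.90, 3.90 and 5.20 CPM in WT and 54.4, 6.83 and 19.3 CPM in KO. WT replicate 1 lay above KO replicate 2, and the spread in WT, 3.63-fold from lowest to highest, was the widest of the 10 genes. The log2 fold change was 2.25 (SE 0.71, edgeR adjusted p = 0.201), 2.80 without WT replicate 1 and 1.21 without KO replicate 1. *Tlr9* (chr9:106222598-106226883), the receptor for CpG DNA, read 0.815, 1.13, 1.28 and 1.52 CPM in WT and 16.3, 2.61 and 5.59 CPM in KO. Its groups did not overlap, and the log2 fold change was 2.79 (SE 0.59, edgeR adjusted p = 0.166), or 1.78 without KO replicate 1. Over the 4 endosomal receptors the median log2 deviation from the WT mean was 4.13, 1.33 and 2.33 in KO replicates 1, 2 and 3.

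The surface receptors were less alike, with medians of 2.28, 0.50 and 0.94 in the same libraries. *Tlr2* (chr3:83836272-83841767), the shared partner for lipopeptides, read 6.52, 8.56, 9.60 and 10.8 CPM in WT and 33.7, 13.4 and 22.8 CPM in KO. All KO libraries lay above all WT libraries, and the log2 fold change was 1.39 (SE 0.32, edgeR adjusted p = 0.170). Its partner *Tlr1* read 0.705, 1.11, 0.861 and 1.62 CPM in WT and 32.8, 1.97 and 6.77 CPM in KO. The groups were again apart, but KO replicate 2 lay just above WT replicate 4, and KO replicate 1 was 16.7 times KO replicate 2. The log2 fold change of *Tlr1* was 3.69 (SE 0.87, edgeR adjusted p = 0.170), and 2.02 without KO replicate 1.

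*Tlr6*, the alternative partner, read 2.48, 1.90, 1.29 and 2.19 CPM in WT and 11.9, 1.96 and 2.72 CPM in KO. KO replicate 2 lay inside the WT range and KO replicate 3 just above it, so that the log2 fold change, 1.49 (SE 0.62, edgeR adjusted p = 0.281), was 0.25 without KO replicate 1. *Tlr4* (chr4:66827584-66930284), the lipopolysaccharide receptor, was the most abundant receptor in WT and differed least. It read 48.0, 34.3, 35.9 and 40.3 CPM in WT and 64.1, 51.5 and 41.6 CPM in KO, and KO replicate 3 lay below WT replicate 1. Its log2 fold change was 0.40 (SE 0.18, edgeR adjusted p = 0.306) and 0.23 without KO replicate 1. DESeq2 called neither *Tlr6* (adjusted p = 0.112) nor *Tlr4* (adjusted p = 0.236).

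*Cd14* (chr18:36725067-36726798), which presents lipopolysaccharide to *Tlr4*, read 8.68, 6.63, 6.30 and 12.9 CPM in WT and 56.3, 16.2 and 42.1 CPM in KO. All KO libraries lay above all WT libraries, and KO replicate 3, at 42.1 CPM, was well above KO replicate 2. The log2 fold change was 2.15 (SE 0.43, edgeR adjusted p = 0.165) and 1.75 without KO replicate 1. *Myd88* read 23.5, 26.3, 20.8 and 27.0 CPM in WT and 75.9, 29.2 and 58.2 CPM in KO. Its groups did not overlap, though KO replicate 2 exceeded the highest WT library only by 29.2 to 27.0 CPM, and the log2 fold change was 1.16 (SE 0.29, edgeR adjusted p = 0.174). For each of the 7 genes without overlap the exact 2-sided permutation test of the 7 libraries gave p = 0.0286, the smallest they can give. It gave p = 0.0857 for *Tlr7*, 0.114 for *Tlr4* and 0.143 for *Tlr6* (exact permutation test).

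**Figure D2:**
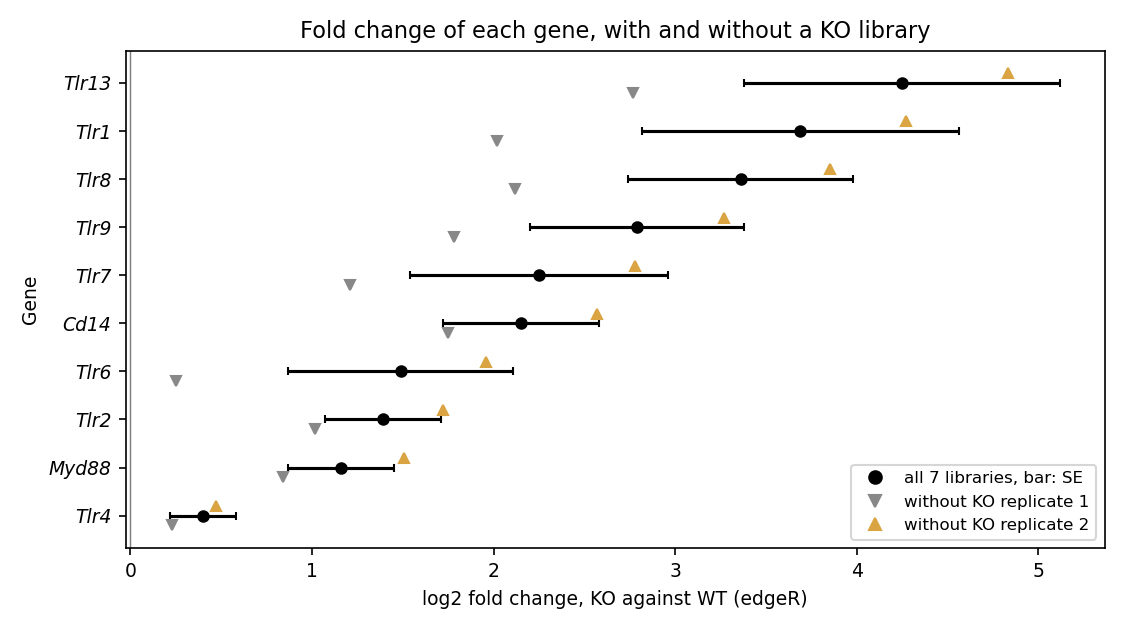
Log2 fold change in KO against WT of each of the 10 genes from edgeR with all 7 libraries (black, bar for the SE), without KO replicate 1 (grey) and without KO replicate 2 (yellow). Without KO replicate 1 every value is smaller, *Tlr6* going from 1.49 to 0.25, and without KO replicate 2 every value is larger.

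Single libraries moved these results. Without KO replicate 2, edgeR called 7 of the 10 genes higher, against 3.34% of all genes higher and 1.81% lower. These were the 7 without overlap, while *Tlr7* (adjusted p = 0.0523), *Tlr6* (adjusted p = 0.105) and *Tlr4* (adjusted p = 0.274) were not called. Without KO replicate 1 the median log2 fold change of the 10 was 1.48 and edgeR called 0.

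Levels can be set against each other only per length, here as CPM per kilobase of merged exons. In WT the order was *Myd88* (9.47 ± 1.09), *Tlr4* (7.14 ± 1.11), *Cd14* (4.99 ± 1.76), *Tlr2* (2.94 ± 0.603) and *Tlr7* (1.38 ± 0.833 CPM per kilobase, SD, n = 4). *Tlr8*, *Tlr6*, *Tlr13*, *Tlr9* and *Tlr1* followed at 0.583 to 0.321 CPM per kilobase. Neighbours in this order had overlapping libraries, except *Cd14* over *Tlr2* and *Tlr7* over *Tlr8*. In KO the order was *Cd14* (22.1 ± 11.8), *Myd88* (21.1 ± 9.16), *Tlr4* (9.44 ± 2.03) and *Tlr13* (9.17 ± 10.4 CPM per kilobase, SD, n = 3). Counted from the highest, *Tlr13* thus ranked 8 in WT and 4 in KO, and *Tlr6* ranked 7 and 10. All neighbours overlapped in KO.

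The 10 genes were then read against macrophage transcripts in the same library. The mean log2 CPM of the 13 macrophage markers (among them *Adgre1*, *Csf1r*, *Cd68*, *Lyz2* and *C1qa*) deviated from the WT mean by 2.92, 0.71 and 1.57 in KO replicates 1, 2 and 3. Of the 13, 11 had every KO library above every WT library, against 8.17% of all tested genes. None was at 0 in all libraries. *Mertk* and *Cd163*, markers of resident macrophages, were the 2 whose groups overlapped. The log2 fold changes of the 13 markers ran from -0.23 (*Mertk*) and 0.52 (*Cd163*) to 3.21 (*Cx3cr1*) and 3.69 (*Fcgr1*). *Tlr13* (4.25) lay above this span, *Tlr1* (3.69) at its upper end, and *Tlr8* (3.36) and *Tlr9* (2.79) inside it. A rise relative to the mean of the markers is therefore not a rise relative to each of them. Relative to the mean of the 13 markers, *Tlr13* was higher in KO by 1.78, *Tlr8* by 1.14, *Tlr1* by 1.13 and *Tlr9* by 0.67 on the log2 scale. For *Tlr13*, *Tlr8* and *Tlr9* all KO libraries lay above all WT libraries, and for *Tlr1* KO replicate 2, at -4.02, lay inside the WT range of -4.91 to -3.78. *Tlr8* kept a nearly fixed ratio to the markers in WT, between -3.25 and -3.21, and read -1.69, -2.19 and -2.39 in KO.

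For the other 6 genes the differences were smaller or of the opposite sign. *Cd14* and *Tlr7* differed from WT by 0.29 and 0.21 relative to the markers, with overlapping groups, although *Cd14* in KO replicate 3 (-0.48) lay above all WT libraries. *Tlr2* differed by -0.42, also with overlap. *Tlr4*, *Tlr6* and *Myd88* were lower relative to the markers in every KO library, by -1.34, -0.68 and -0.68. The mean of the markers itself was higher in KO by 1.73, so a gene at an unchanged level would also be lower relative to it. A lower ratio is thus not a lower level per macrophage. For *Tlr6* the groups barely parted, the highest KO library being at -3.66 and the lowest WT library at -3.65, and for *Tlr9* the lowest KO library was at -3.61 and the highest WT library at -3.66. With *Ptprc*, the leukocyte common antigen, as the only reference *Tlr13* averaged -3.61 in WT and -2.10 in KO, *Tlr8* and *Tlr1* differed by 0.87 and 0.86 and *Tlr4* by -1.61, and the groups of all 10 genes overlapped. *Ptprc* read 50.98 CPM in WT replicate 2 and 25.0 CPM or less in the other WT libraries. In WT replicate 2 the 5 T cell markers summed to 95.9 CPM, against 30.5 CPM or less in KO. This library had the lowest WT ratio to *Ptprc* for each of the 10 genes. For *Tlr4*, *Tlr6* and *Myd88* it was the only WT library below the highest KO library. For *Tlr13* and *Tlr8* the overlap was with WT replicate 1, at -2.27 and -2.75. KO replicate 2 of *Tlr13* was at -3.1 and KO replicate 3 of *Tlr8* at -2.82. These ratios are descriptions without a test, and the share of all genes that part in this way was not computed.

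**Figure D3:**
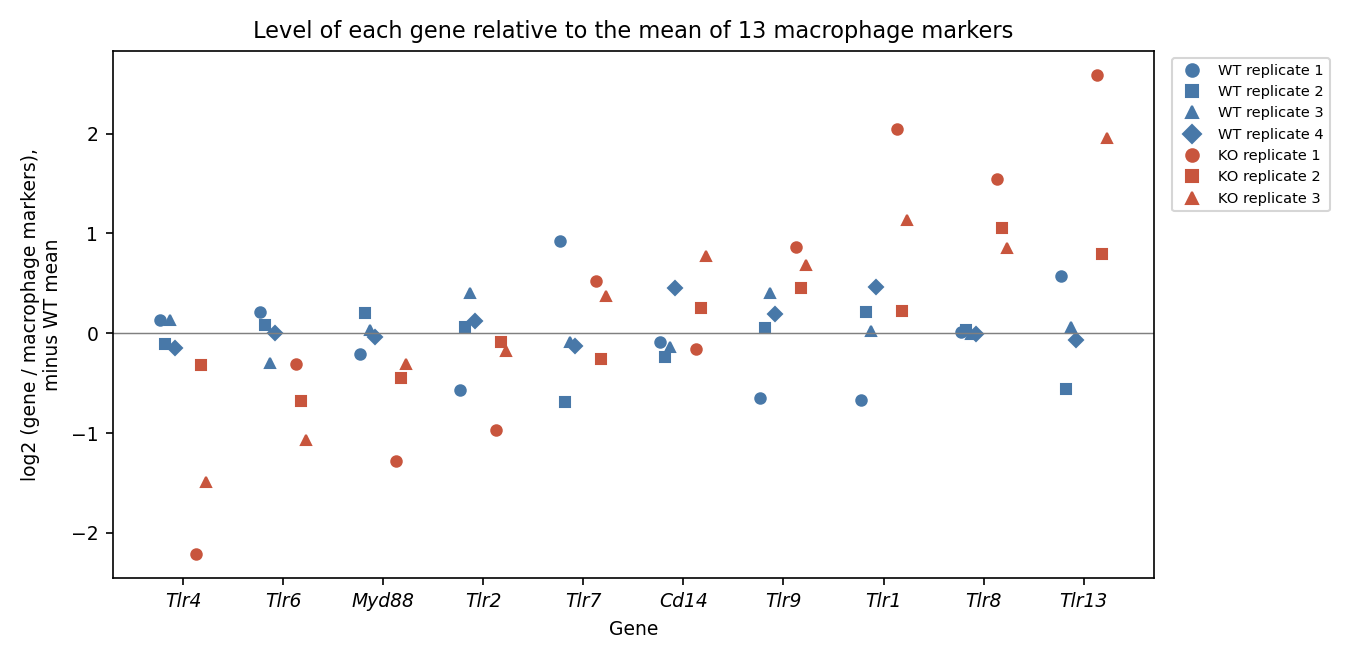
Log2 level of each gene minus the mean log2 level of 13 macrophage markers in the same library, shown as the difference from the WT mean, with symbols as in the plot of CPM by library. *Tlr4*, *Tlr6* and *Myd88* lie below all WT libraries in KO, and *Tlr9*, *Tlr8* and *Tlr13* above them.

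The genes with the pattern most like each of the 10 were found by the root mean square difference of log2 deviations from the WT mean over the 7 libraries, among 14764 genes. For *Tlr13* these were *Ms4a6d* (0.20) and the lipid receptor gene *Trem2* (0.32), and for *Tlr8* *Ly86* (0.22) and *Ms4a7* (0.25). *Tlr9* lay closest to *Ifitm1* (0.17) and *Cybb* (0.19), the latter a subunit of the phagocyte oxidase, and *Tlr1* to *Cyp4f18* (0.17) and the complement receptor gene *C3ar1* (0.24). *Tlr7* lay closest to *Ptgs2* (0.19), an inducible cyclooxygenase, and to *Nuak2* (0.28), which like *Tlr7* were highest among WT libraries in replicate 1. *Tlr2* lay closest to *Trim30d* (0.10) and *Trim30a* (0.13), *Cd14* to *Gldc* (0.18) and *Oas1g* (0.21), and *Myd88* to *Mlkl* (0.14) and *Pgd* (0.15). *Tlr4* lay closest to *Rcn1* (0.04) and *Tmc4* (0.05), and *Tlr6* to *Ckap2* (0.17) and *Arid3a* (0.18). Among the 10 genes themselves the closest pair was *Tlr2* and *Myd88* (0.28).

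The other 4 receptors of the table had a median log2 fold change of 0.91. Neither edgeR nor DESeq2 called any of them, against 0.0156% and 5.32% of all genes called higher. For 4 genes this is close to those shares. *Tlr3*, which binds double-stranded RNA and signals without *Myd88*, read 11.4, 10.3, 12.9 and 13.2 CPM in WT and 15.2, 14.6 and 14.7 CPM in KO. Its KO libraries lay above WT and were close to each other, and the log2 fold change was 0.31 (SE 0.14, edgeR adjusted p = 0.320). *Tlr5*, the flagellin receptor, read 13.8 CPM in KO replicate 1 and 3.87 and 4.64 CPM in KO replicates 2 and 3, inside the WT range of 3.20 to 4.79 CPM. *Tlr11* and *Tlr12* stayed at 1.31 CPM or less in every library, and their groups overlapped, with log2 fold changes of 0.94 and 1.18.

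Proteins that assist the receptors were 9 tested genes with a median log2 fold change of 0.73. Of these, edgeR called 0 and DESeq2 5 higher, against the 5.32% of all genes that DESeq2 called higher. *Cd180* encodes a receptor-like protein without a signalling domain of its own, and *Ly86* its secreted partner. *Ly86* read between 2.25 and 2.88 CPM in WT and 47.6, 7.25 and 18.1 CPM in KO, and *Cd180* between 0.643 and 1.39 CPM in WT and 14.9, 1.56 and 6.44 CPM in KO, without overlap for either. *Unc93b1*, which carries the nucleic acid receptors to endosomes, read between 25.8 and 34.6 CPM in WT and 208.5, 39.9 and 61.4 CPM in KO. This order of the KO libraries was also that of 9 of the 10 genes, of the summed macrophage markers and of 21.8% of all tested genes. *Ly96*, the partner of *Tlr4* in binding lipopolysaccharide and named here after its values had been seen, averaged 1.56 ± 0.237 CPM in WT and 3.31 ± 1.42 CPM in KO (SD, n = 4 and 3), and its log2 fold change was 1.09 (SE 0.33, edgeR adjusted p = 0.195).

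Genes of the signalling chain below the receptors differed less. The 19 adaptors, kinases and ligases had a median log2 fold change of 0.17, and edgeR called 0. DESeq2 called 1 higher and 1 lower, close to its shares over all genes (5.32% higher and 3.05% lower). *Irak2*, a kinase of the *Myd88* complex, read 55.3, 53.8, 53.2 and 56.0 CPM in WT and 41.7, 45.5 and 34.0 CPM in KO. It was lower in all KO libraries, against 8.56% of all tested genes, and its log2 fold change was -0.43 (SE 0.12, edgeR adjusted p = 0.181, DESeq2 adjusted p = 0.031). The adaptor *Pik3ap1* read between 1.57 and 3.57 CPM in WT and 40.2, 3.56 and 12.8 CPM in KO, so that KO replicate 2 met the highest WT library. *Tirap*, which bridges *Tlr2* and *Tlr4* to *Myd88*, averaged 12.0 ± 1.53 CPM in WT and 18.2 ± 5.68 CPM in KO (SD, n = 4 and 3), without overlap.

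Transcription factors of the pathway had a median of 0.67 over 9 tested genes. DESeq2 called 4 higher, against 5.32% of all genes, and edgeR 0. The interferon regulatory factors *Irf5*, *Irf7* and *Irf8*, which act below the endosomal receptors or in myeloid cells, lay above WT in every KO library. *Irf7* read between 7.22 and 13.7 CPM in WT and 39.1, 19.8 and 47.1 CPM in KO, with replicate 3 and not replicate 1 the highest. *Irf8* averaged 5.57 ± 0.756 CPM in WT and 27.2 ± 22.8 CPM in KO, and *Irf5* 6.41 ± 0.898 and 25.5 ± 20.2 CPM (SD, n = 4 and 3).

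The 10 inhibitors had a median of 0.29, with 1 called higher by DESeq2, against 5.32% of all genes, and 0 by edgeR. That 1 was *Socs3*, a brake on cytokine signalling, at 6.56 to 12.4 CPM in WT and 108.5, 17.6 and 78.1 CPM in KO. *Irak3*, a kinase homologue that blocks the *Myd88* complex, read 23.5, 11.2 and 22.0 CPM in KO, with replicates 1 and 3 above the WT range of 9.62 to 13.9 CPM and replicate 2 inside it. *Nfkbie*, an inhibitor of NF-κB, read 15.9 CPM in KO replicate 1 and 4.22 CPM or less in the other KO libraries, within the WT range.

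Of 14 target genes of the pathway, 10 could be tested. The median log2 fold change was 2.68, with 9 of the 10 above 0, against 46.9% of all genes. DESeq2 called 8 higher, against 5.32% of all genes, and edgeR 0. *Il1b*, interleukin 1β, read between 0.125 and 0.435 CPM in WT and 17.1, 1.21 and 28.2 CPM in KO. *Il6* was at 0 in 3 WT libraries and at 0.0679 CPM in WT replicate 4, and read 6.37, 0.214 and 18.2 CPM in KO. The neutrophil chemokine *Cxcl2* read 5.54, 0.157 and 10.6 CPM in KO, with replicate 2 inside the WT range of 0.0563 to 0.272 CPM. For all 3, KO replicate 3 was the highest library, unlike the receptors, whose highest library was KO replicate 1. It was also the highest for *Cxcl1*, *Cxcl10*, *Ccl2* and *Ccl5*. *Ptgs2* (108.5, 14.7 and 37.7 CPM in KO) and *Tnf* (3.54, 0.157 and 1.24 CPM) were highest in KO replicate 1, like the receptors. *Nos2* was highest in WT replicate 4, at 7.47 CPM.

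Endogenous ligands had a median of 0.66 over 11 tested genes, with 3 called higher by DESeq2, against 5.32% of all genes, and 0 by edgeR. The matrix proteoglycan lumican, *Lum*, which can present lipopolysaccharide to *Cd14*, read 225.1, 138.7, 179.8 and 205.3 CPM in WT and 447.3, 421.9 and 485.9 CPM in KO. Its 3 KO libraries were alike, unlike those of the receptors, and the log2 fold change was 1.27 (SE 0.18, edgeR adjusted p = 0.165), the same as without KO replicate 1. The calgranulins *S100a8* and *S100a9*, which are neutrophil proteins and ligands of *Tlr4*, read 30.8 and 44.6 CPM in KO replicate 1 and 5.37 and 13.2 CPM in KO replicate 3, above the highest WT libraries (3.00 and 3.97 CPM). In KO replicate 2 they read 1.70 and 3.40 CPM, inside the WT range.

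**Figure D4:**
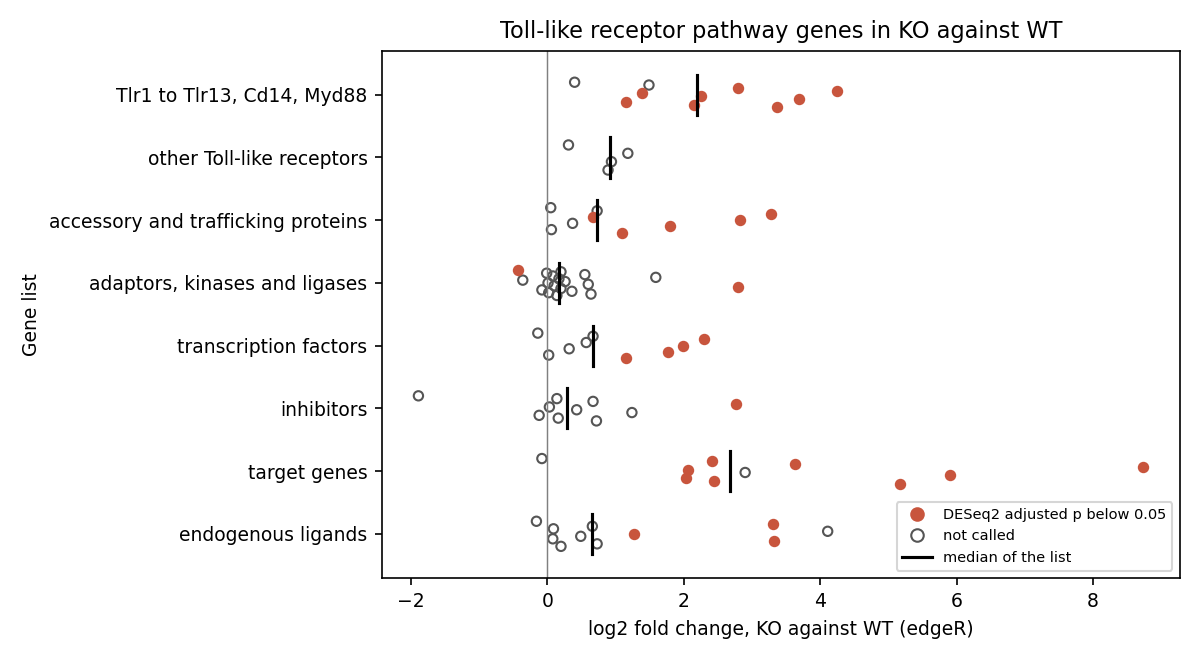
Log2 fold change in KO against WT (edgeR) of the 10 genes and of the tested genes of each pathway list, 1 circle per gene, filled where DESeq2 gave an adjusted p below 0.05, with a black line at the list's median. The median is 2.20 for the 10 genes, 2.68 for the target genes and 0.17 for the adaptors, kinases and ligases.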

How the data were processed

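Total RNA of mouse aorta was made into SMARTER mRNA-Seq libraries, per the labels' protocols. The authors deposited whole-number estimated counts per Ensembl gene, unscaled between libraries. The submitters' processing notes name GRCm38 and mm10, and the aligner, the counter and its strand setting were not given in the sources used here. Low values were 1.55 times as frequent at multiples of 4 (from 8 to 40) as at their neighbours, so a count need not be 1 read. Symbols came from a GENCODE M21 table (47224 of 47729 identifiers matched), positions and exon lengths from its GRCm38 annotation.

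All 7 libraries entered one fit in R 4.3.3 with edgeR 4.0.16: filterByExpr (19188 genes kept), TMM, estimateDisp, glmQLFit and glmQLFTest, without covariates, 2-sided, Benjamini-Hochberg threshold 0.05. SEs match the quasi-likelihood F statistic. CPM use TMM factors, and log2 CPM a prior count of 2. On simulated counts with the spread of these data, the procedure recovered 13.3% of 2-fold and 74.2% of 8-fold changes of KO against WT, among 19188 genes with 200 changed. Libraries differed pairwise by more than sampling noise.

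The members, lists and tests were chosen with earlier results of these data known. Besides the 10 genes, the rule named the other Toll-like receptors, the 3 genes of smallest p in each pathway list and the 2 genes nearest each member in pattern. *Acaa1a*, *Ly96*, *Mmp19*, *Fgb*, marker genes and the further target genes fall outside it. Alternatives were DESeq2 1.42.0, limma-voom (limma 3.58.1) with quality weights, other scalings and filters, counts divided by 4, a block for the replicate number, and the fit without each library in turn. The newer edgeR quasi-likelihood fit was added after seeing the data, because the planned legacy fit is the default of this version. All 7 sample columns were used.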

Additional observations from a re-analysis of the deposited data

Results flagged for a closer look

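In each of the 51 named genes the 4 WT libraries were searched for a value far from the other 3, which chance finds in about 1 in 20 groups. Over 51 groups, chance alone is expected to flag a few. *Tlr12* read 1.31 CPM in WT replicate 2 and 0.125 to 0.158 CPM in the other WT libraries, so that this library lay above all 3 KO libraries. *Il6* read 0.0679 CPM in WT replicate 4 and 0 in the other 3 WT libraries, where any value above 0 is flagged.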

How the results depend on the processing

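Each of the 10 genes kept a positive log2 fold change under all 16 alternatives, and in 145 of the 160 combinations it stayed above the threshold of 0.05, as in the fit reported. The other 15 were calls by DESeq2 (8 of the 10 genes) and by edgeR without KO replicate 2 (7 of the 10). Leaving out 1 library at a time, edgeR called between 0 and 7 of the 10 genes, and over all genes between 0 and 667 higher and between 0 and 362 lower, the upper ends without KO replicate 2. Over all genes 3 were higher and 0 lower in the fit reported. DESeq2 gave 1020 higher and 586 lower, limma-voom, counts divided by 4 and the stricter filter (50 counts in 3 libraries) 7 higher each, the newer quasi-likelihood fit 5 and no filter 0. With the replicate number as a block 0 genes and 0 of the 10 were called. Same-numbered libraries correlated in their deviations by 0.0545 to 0.34, the upper value (replicate 3) being the highest of all pairs. Not every library correlated best with its own number. With 4 and 3 libraries these correlations cannot decide whether the numbers mark pairs or batches. Relative to *Ptprc* in place of the macrophage markers, *Tlr9* differed by 0.39 and not 0.67. The planned legacy fit equals the fit reported. With limma-voom the log2 fold change was smaller by over 1.5 times for *Tlr1* (2.28), *Tlr4* (0.22) and *Tlr6* (0.52). Why DESeq2 and edgeR differ was not tested. The lowest count of the 10 genes was 45 (*Tlr1*, WT replicate 1), and a count need not be 1 read. Whether depth limited them was not tested. *Il12b*, *Ifnb1*, *Acod1*, *Il10* and *Fgb* were too low to test.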

Other observations

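Markers of other leukocytes that can carry these receptors differed among themselves. Of the 5 markers of conventional dendritic cells, 4 had each KO library above each WT library, against 8.17% of all tested genes. *Itgax*, an integrin also found on macrophages, read 1.32 to 1.98 CPM in WT and 31.2, 5.28 and 11.7 CPM in KO. The cytokine receptor *Flt3* read 0.0543 to 0.631 CPM and 10.6, 1.63 and 2.51 CPM, and the chemokine receptor *Xcr1* 0.125 to 0.201 CPM and 1.13, 0.40 and 1.49 CPM. *Clec9a* differed less, at 2.83 to 3.54 CPM and 5.96, 3.91 and 4.52 CPM. The transcription factor gene *Zbtb46* was neither low nor higher, at 24.6 to 33.0 CPM in WT and 20.9, 28.0 and 23.2 CPM in KO. Markers of plasmacytoid dendritic cells, which use *Tlr7* and *Tlr9*, did not move together. *Siglech* overlapped, at 1.46 CPM or less in WT and 1.75, 0.457 and 1.49 CPM in KO, and so did *Ccr9*, with a log2 fold change of -0.48. That sign rests on WT replicate 2, the library high in T cell markers. *Ccr9* read 16.3 CPM there, 2.73 CPM or less in the other WT libraries and 1.56, 6.78 and 3.35 CPM in KO. *Tcf4*, which other cells also express, lay above WT in each KO library with a log2 fold change of 0.31, and *Bcl11a* had 2.23 (DESeq2 adjusted p = 0.047) with overlapping groups. The granulocyte colony-stimulating factor receptor *Csf3r* read 173.0, 3.87 and 23.8 CPM in KO against 1.29 to 2.38 CPM in WT, while *Mpo* and *Elane*, made by immature neutrophils, stayed at 1.19 CPM or less in every library.

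*Acod1*, an enzyme that myeloid cells switch on when Toll-like receptors signal, was at 0 in all WT libraries and in KO replicate 2, and read 2.94 and 3.47 CPM in KO replicates 1 and 3. *Il10*, an anti-inflammatory cytokine, was at 0 in all WT libraries and read 0.583, 0.129 and 0.492 CPM in KO.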
